A study of Homo sapiens with 9 samples.

Results

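The genes described here are 59 genes of DNA replication and mitosis, followed as 2 blocks: 28 genes active from late G1 through S phase, called the S-phase block, and 31 genes active in G2 phase and mitosis, called the G2/M block. They were given as a list of symbols, and all 59 were found among the 58395 genes of each table and passed the filter on low counts in every comparison. RNA was sequenced from HCT116, an established human colon carcinoma line, in 3 groups of 3 libraries that the study calls biological replicates. All 3 groups carried shSTBD1, a short hairpin RNA that lowers STBD1, a glycogen-binding receptor that delivers glycogen to autophagosomes. On this background the plvx neo group carried the lentiviral vector alone, the STBD1 WT group a hairpin-resistant STBD1, and the STBD1 W203C group the same construct with a tryptophan replaced by cysteine in the motif that binds the ATG8 family of autophagosome proteins. The constructs are over-expressed from a lentiviral vector in selected lines, so they stand for high expression rather than for the endogenous gene.

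For the constructs, GEO's sample titles and the table names disagree: tables of samples titled STBD1 WT are named for W203C, and the reverse. The titles were followed here. If they were exchanged, each direction between the constructs given below would reverse and their comparisons with plvx neo would trade places. The targeted gene separates the vector from both constructs, with 3.27 ± 0.547 TPM (length-scaled transcript abundance at a fixed total per library; mean ± SD, n = 3) in plvx neo, 10.8 ± 0.0693 with STBD1 WT and 9.15 ± 1.04 in STBD1 W203C, but does not tell the constructs apart by sequence. FAM47E-STBD1, an annotated readthrough gene that shares exons with STBD1, was at 1.58 ± 0.748, 43.7 ± 2.32 and 36.9 ± 1.92 TPM in the same order, above STBD1 in both construct groups, so the level of either gene alone is uncertain. Total expected counts were 16.9 to 23.3 M per library. In every group 6 of 10 epithelial markers, among them EPCAM, KRT8 and CDX2, were above 1 TPM, CEACAM5 was at 0, and of 13 markers of other cell types COL1A1 and ACTA2 were above 1 TPM and DCN was at 0. The summed epithelial markers were 3799 to 3898 TPM in plvx neo, 3395 to 3528 TPM with STBD1 WT and 3178 to 3438 TPM with STBD1 W203C, and the markers of other cell types summed to 19.7 to 21.7, 22.3 to 31.4 and 18.8 to 24.1 TPM. The part of these markers in the results below was not tested.

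A cell copies its genome once per division. In G1 the origin recognition complex, CDC6 and CDT1 load the MCM helicase onto origins, and in S phase CDC45, GINS and MCM10 switch it on while E2F transcription factors drive the genes for the replication machinery. The mitotic genes peak later, under the DREAM and B-MYB-FOXM1 complexes that act through cell cycle homology regions (CHR) and CCAAT boxes in their promoters, and their products condense, attach and separate the chromosomes. Both gene sets are read as signs of proliferation in tumours, where Ki67, the product of MKI67, is the usual stain. The study stained tumours for Ki67 and for c-Myc.

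The proximal promoters of the 2 blocks carried different motifs. Promoter windows of 300 bases, from 250 before to 50 after the start, came from RefSeq (GRCh38.p14) and were given for 25 members of each block. They were searched on both strands for 3 kinds of motif: an E2F site (TTTCCCGC, TTTGGCGC, TTTCGCGC or TTTGCCGC), a CHR (TTTGAA or TTCGAA) and a CCAAT box (CCAAT). The 4 windows below belong to the members of each block with the largest changes among the named genes whose window held the motif of the block. They are printed 5′ to 3′ on the gene's strand, with the E2F site of CDC6 and CLSPN and the CHR of BUB1B and PLK1 in capitals.
CDC6, chr17:40287629-40287928, plus strand: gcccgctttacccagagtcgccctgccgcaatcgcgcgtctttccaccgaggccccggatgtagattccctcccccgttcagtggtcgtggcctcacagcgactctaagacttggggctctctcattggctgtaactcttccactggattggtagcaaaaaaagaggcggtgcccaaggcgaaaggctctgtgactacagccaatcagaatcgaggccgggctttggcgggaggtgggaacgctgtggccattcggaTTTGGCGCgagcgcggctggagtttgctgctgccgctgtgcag
CLSPN, chr1:35769929-35770228, minus strand: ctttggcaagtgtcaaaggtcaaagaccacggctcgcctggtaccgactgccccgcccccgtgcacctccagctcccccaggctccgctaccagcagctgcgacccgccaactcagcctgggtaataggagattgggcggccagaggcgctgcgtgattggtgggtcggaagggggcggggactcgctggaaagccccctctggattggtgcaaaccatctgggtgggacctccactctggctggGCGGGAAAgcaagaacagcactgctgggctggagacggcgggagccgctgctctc
BUB1B, chr15:40160819-40161118, plus strand: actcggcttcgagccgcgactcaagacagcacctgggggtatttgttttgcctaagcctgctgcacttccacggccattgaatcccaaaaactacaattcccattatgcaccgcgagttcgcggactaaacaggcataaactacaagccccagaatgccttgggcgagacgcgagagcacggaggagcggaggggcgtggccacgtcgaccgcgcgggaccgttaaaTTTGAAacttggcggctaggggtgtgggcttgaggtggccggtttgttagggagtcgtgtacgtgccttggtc
PLK1, chr16:23678639-23678938, plus strand: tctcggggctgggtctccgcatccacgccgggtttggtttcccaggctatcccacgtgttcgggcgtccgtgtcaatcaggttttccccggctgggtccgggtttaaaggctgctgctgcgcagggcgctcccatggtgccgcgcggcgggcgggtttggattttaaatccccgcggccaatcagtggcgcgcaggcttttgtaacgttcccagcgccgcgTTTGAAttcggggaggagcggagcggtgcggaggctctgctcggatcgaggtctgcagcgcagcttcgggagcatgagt

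Counted from the RefSeq start, with no position 0, the E2F match began at 8 in CDC6 and at -5 in CLSPN, and the CHR match at -23 in BUB1B and at -29 in PLK1. An E2F site was present in 15 of 25 S-phase windows (60%) and in 3 of 25 G2/M windows (12%), against 5.28% of the 11091 windows of genes tested and 3.33% of all 27305 windows. The CHR had the opposite distribution, with 2 of 25 S-phase windows (8%), 16 of 25 G2/M windows (64%), 10.9% of the windows of genes tested and 16.6% of all windows. A CCAAT box was found in 16 S-phase windows (64%) and 19 G2/M windows (76%), against 36.6% of genes tested and 35.7% of all windows. A CHR and a CCAAT box stood together in 14 G2/M windows (56%) and in 6.58% of all windows. No motif contains another. These matches are a description of letters in the windows and show no binding. In the GENCODE annotation (release 44, hg38) CDC6 spans chr17:40287879-40304657, CLSPN chr1:35720218-35769978, BUB1B chr15:40161023-40221123 and PLK1 chr16:23677656-23690367, so the outermost annotated starts of BUB1B and PLK1 lie upstream of the RefSeq starts used.

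**Figure D1:**
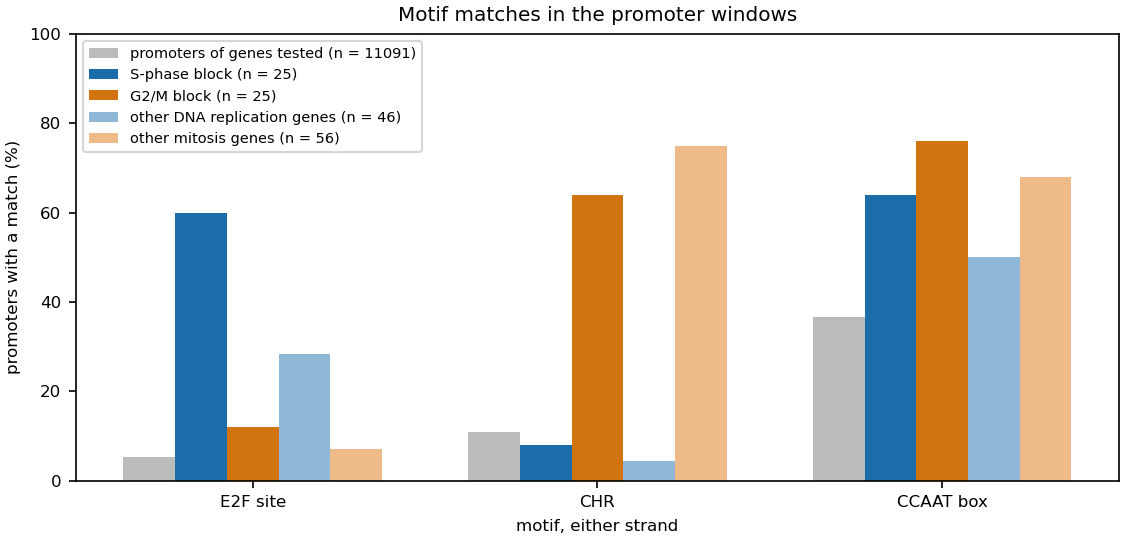
Share of 300-base promoter windows (vertical axis, %) with at least 1 match to each motif, for the genes tested, the 2 blocks and the 2 wider lists of replication and mitosis genes; n is the number of windows. E2F matches reach 60% in the S-phase block and CHR matches reach 64% in the G2/M block and 75% in the other mitosis genes.

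In the S-phase block the libraries labelled STBD1 WT stood apart from the other 6. The 28 genes together made up 0.256%, 0.263% and 0.259% of all TPM in plvx neo, 0.212%, 0.211% and 0.211% with STBD1 WT, and 0.256%, 0.259% and 0.266% with STBD1 W203C. The 3 STBD1 WT values lay below every other library, and the plvx neo and STBD1 W203C values overlapped. The G2/M block followed the same order with a smaller gap, at 0.252%, 0.258% and 0.258% in plvx neo, 0.232%, 0.232% and 0.238% with STBD1 WT, and 0.255%, 0.257% and 0.267% with STBD1 W203C. The order of plvx neo and STBD1 W203C depended on the scale. With counts scaled by the trimmed mean of M values, the mean log2 level was taken relative to the plvx neo mean. In the S-phase block it was 0.0327, -0.0037 and -0.0289 in plvx neo and -0.0794, -0.0959 and -0.0158 with STBD1 W203C. In the G2/M block it was 0.0048, 0.0041 and -0.0089, and -0.0585, -0.058 and 0.0127. In bulk RNA, fewer cells in a phase of the cycle and less RNA of these genes per cell cannot be told apart.

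**Figure D2:**
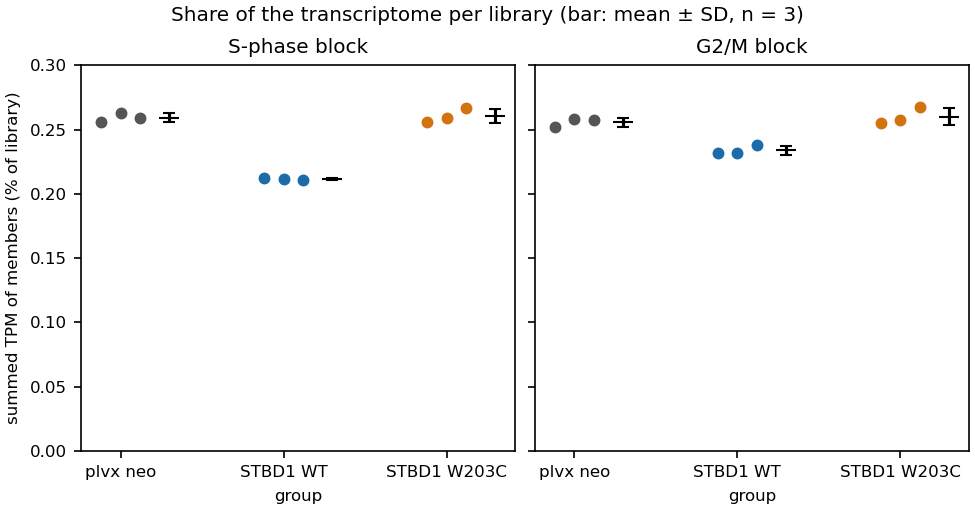
Summed TPM of the members of each block as a share of all TPM (vertical axis, %) in each of the 9 libraries by group; points are libraries and the bar beside them is the mean ± SD of 3. The STBD1 WT libraries are the lowest in both blocks, at 0.211% to 0.212% for the S-phase block and 0.232% to 0.238% for the G2/M block.

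Against plvx neo, all 28 S-phase genes were lower in STBD1 WT at an adjusted p below 0.05, with log2 fold changes from -0.60 to -0.21 and a median of -0.34, a change of -21.1%. Over all 15289 genes tested in this comparison, 13.9% were called lower and 13.9% higher, with a median of 0.01. Of the 28 genes, 26 had TPM values in STBD1 WT entirely below those in plvx neo, which 15.7% of all genes tested had. With STBD1 W203C against STBD1 WT, 26 of the 28 were higher, where 14.5% of all genes were called higher and 13.4% lower. The S-phase log2 fold changes in that comparison ranged from 0.14 to 0.50 with a median of 0.30, beside -0.01 over all genes, and in 26 genes the TPM of the groups did not overlap in this direction, against 21.3% of all genes. These comparisons share the STBD1 WT libraries and are given side by side, not as separate evidence. After removal of a trend with gene length, the calls over all genes split less evenly, into 1740 higher and 3328 lower in STBD1 WT vs plvx neo and 3391 higher and 1554 lower in STBD1 W203C vs STBD1 WT.

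**Figure D3:**
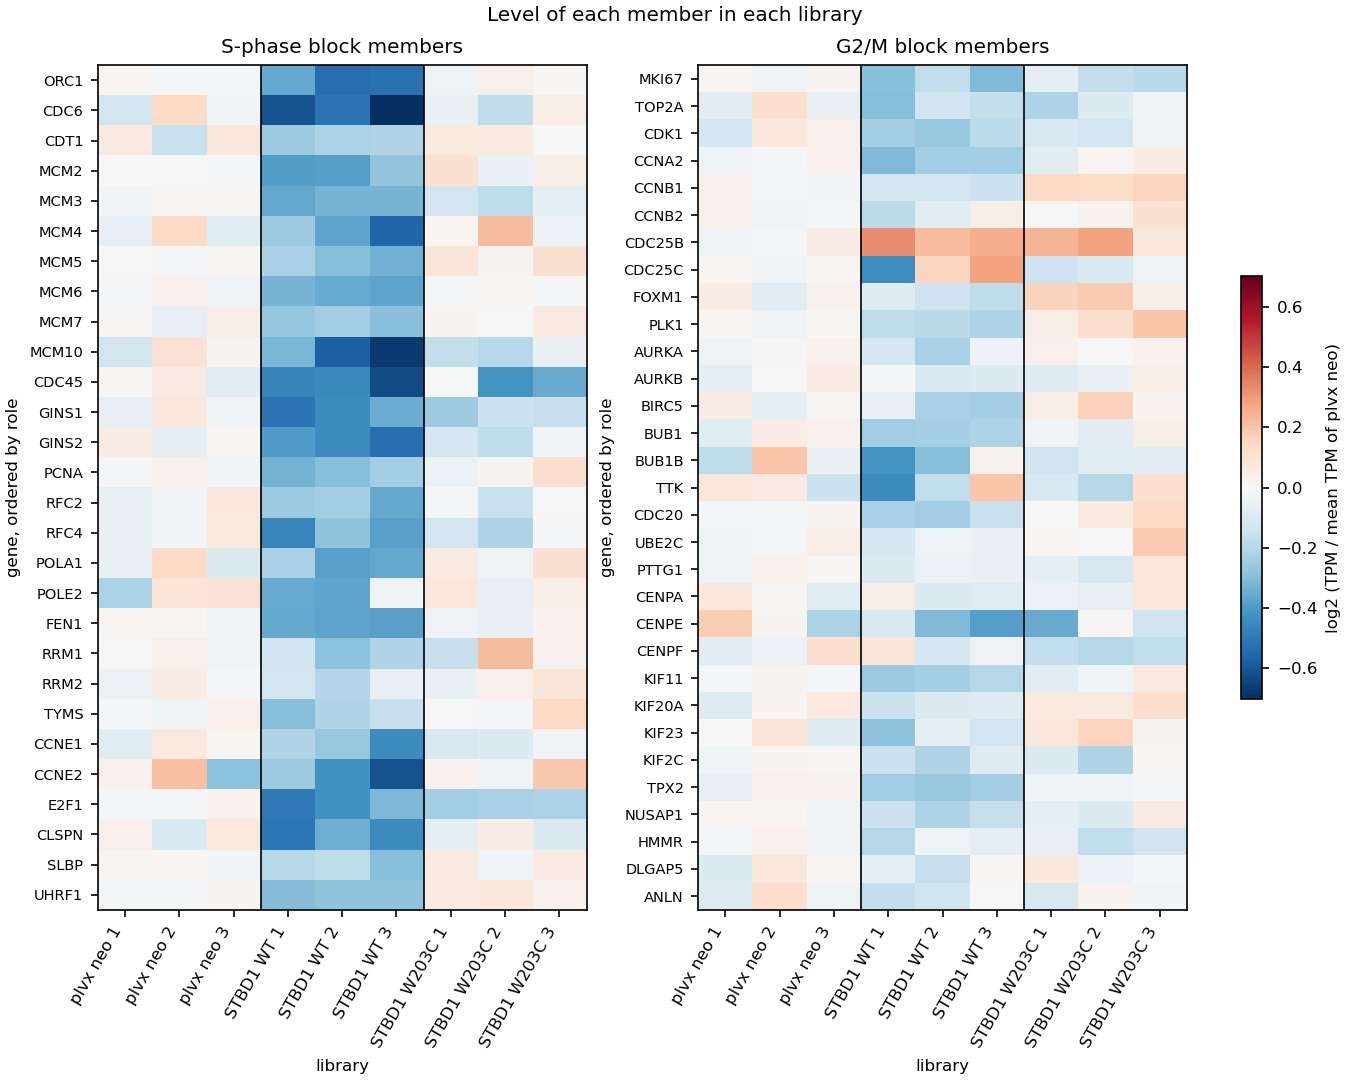
Level of each member (rows, ordered by role) in each library (columns) as log2 of TPM over the mean TPM of the 3 plvx neo libraries; blue is lower and red is higher than that mean. The STBD1 WT columns are blue for nearly every S-phase gene and paler for the G2/M genes, where CDC25B is red in both constructs.

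The origin licensing genes comprise ORC1, CDC6, CDT1 and the 6 subunits of the MCM2 to MCM7 helicase. All 9 were lower in STBD1 WT than in plvx neo (median log2 fold change -0.34) and all 9 were higher in STBD1 W203C than in STBD1 WT (median 0.31). CDC6, the ATPase that recruits the helicase to the origin, stood at 50.2, 60.4 and 54.2 TPM in the plvx neo libraries, 35.95, 38.4 and 33.9 TPM with STBD1 WT and 53.1, 48.7 and 56.7 TPM with STBD1 W203C. The STBD1 WT libraries were all lower than the other 6, which overlapped. CDC6 gave a log2 fold change of -0.52 ± 0.04 (SE), adjusted p = 1.92e-08, in STBD1 WT vs plvx neo and a log2 fold change of 0.40 ± 0.04 (SE), adjusted p = 2.91e-07, in STBD1 W203C vs STBD1 WT. ORC1, the large subunit of the origin recognition complex, was measured at 18.4, 18.1 and 18.1 TPM in the plvx neo libraries, 14.2, 12.6 and 12.7 TPM with STBD1 WT and 17.8, 18.7 and 18.3 TPM with STBD1 W203C. Again only the STBD1 WT libraries were set apart, with a log2 fold change of -0.47 ± 0.06 (SE), adjusted p = 8.97e-06, against plvx neo and 0.44 ± 0.06 (adjusted p = 1.48e-05) for W203C over WT.

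MCM2, a helicase subunit used as a proliferation marker, had 97.4, 97.4 and 96.6 TPM in the plvx neo libraries, 74.2, 74.4 and 80.3 TPM with STBD1 WT and 104, 94.1 and 99.8 TPM with STBD1 W203C. Its values in plvx neo and STBD1 W203C overlapped and those in STBD1 WT were lower, with a log2 fold change of -0.34 ± 0.04 (SE), adjusted p = 1.94e-06, in STBD1 WT vs plvx neo and a log2 fold change of 0.35 ± 0.04 (SE), adjusted p = 2.82e-06, in STBD1 W203C vs STBD1 WT. MCM3, another subunit of the same ring, had 124, 126 and 126 TPM in the plvx neo libraries, 97.5, 99.98 and 99.8 TPM with STBD1 WT and 115, 111 and 119.9 TPM with STBD1 W203C. Unlike MCM2, it took 3 separate levels, with STBD1 W203C between the other groups. MCM3 changed by -0.32 ± 0.03 on the log2 scale in STBD1 WT vs plvx neo (adjusted p = 7.91e-07), with a smaller step of 0.18 ± 0.04 in STBD1 W203C vs STBD1 WT (adjusted p = 0.000865). The remaining ring subunits had log2 fold changes in these comparisons of -0.43 and 0.38 for MCM4, -0.22 and 0.29 for MCM5, -0.35 and 0.31 for MCM6, and -0.27 and 0.26 for MCM7, all called, as was the loading factor CDT1 (-0.33 and 0.30).

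The genes that activate the helicase fell furthest by role in STBD1 WT, with a median of -0.45 for MCM10, CDC45, GINS1 and GINS2. MCM10, which helps to start unwinding, had the largest fall of the whole list in the fit on counts. It was at 22.3, 26.1 and 24.6 TPM in the plvx neo libraries, 19.5, 16.4 and 15.3 TPM with STBD1 WT and 21.7, 21.2 and 23.5 TPM with STBD1 W203C. Every STBD1 WT library was below every other library. MCM10 had a log2 fold change of -0.60 ± 0.05 (SE), adjusted p = 2.21e-08, in STBD1 WT vs plvx neo and a log2 fold change of 0.50 ± 0.05 (SE), adjusted p = 8.29e-07, in STBD1 W203C vs STBD1 WT. GINS1, a subunit of the GINS complex that joins the moving helicase, was at 20.9, 22.9 and 21.4 TPM in the plvx neo libraries, 15.2, 15.97 and 17.1 TPM with STBD1 WT and 18.3, 19.6 and 19.5 TPM with STBD1 W203C. The 3 groups did not overlap, and STBD1 W203C lay between the others. GINS1 was lower in STBD1 WT than in plvx neo (log2 fold change of -0.40 ± 0.05 (SE), adjusted p = 1.79e-05), while the difference between the constructs missed the threshold (log2 fold change of 0.15 ± 0.06 (SE), adjusted p = 0.0554). With the length offset that difference was called (0.19, adjusted p = 0.01035). All 28 S-phase genes were called higher in that setting, beside 3391 of all 15052 genes tested. CDC45 had log2 fold changes of -0.46 in STBD1 WT vs plvx neo and 0.26 in STBD1 W203C vs STBD1 WT, and GINS2 had -0.44 and 0.32, all called.

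The polymerase, clamp and lagging-strand genes were all 6 called in both comparisons in the fit reported, with medians of -0.30 and 0.30. In STBD1 W203C vs STBD1 WT, DESeq2 lost the calls of RFC2 (adjusted p = 0.0697) and POLE2 (adjusted p = 0.0636). Limma-trend on TPM lost that of POLE2 (adjusted p = 0.139 with a pseudocount of 1). PCNA, the sliding clamp that holds polymerases on DNA, was the most abundant S-phase gene at 299.8, 309.7 and 298 TPM in the plvx neo libraries, 240.5, 246 and 256 TPM with STBD1 WT and 295, 307 and 327 TPM with STBD1 W203C. Only STBD1 WT stood apart. Its change was -0.30 ± 0.04 (SE) on the log2 scale in STBD1 WT vs plvx neo (adjusted p = 4.52e-06) and 0.29 ± 0.04 in STBD1 W203C vs STBD1 WT (adjusted p = 1.90e-05). The clamp loader subunits RFC2 and RFC4 changed by -0.25 and -0.42 in STBD1 WT vs plvx neo, the polymerase subunits POLA1 and POLE2 by -0.28 and -0.30, and the flap nuclease FEN1 by -0.36. In STBD1 W203C vs STBD1 WT the log2 fold changes were 0.16 for RFC2, 0.30 for RFC4, 0.32 for POLA1, 0.24 for POLE2 and 0.33 for FEN1. The genes for nucleotide supply had the smallest median in STBD1 WT vs plvx neo among the S-phase roles, -0.24. The ribonucleotide reductase subunits RRM1 and RRM2 had -0.35 and -0.24, and thymidylate synthase, TYMS, had -0.21, the smallest change of the block; 39.9% of the exon bases of TYMS overlap ENOSF1, so its count is uncertain.

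The G1/S regulators included E2F1, which like GINS1 was not called between the constructs in the fit reported, and the least abundant S-phase gene, CCNE2. E2F1, the transcription factor that switches on S-phase genes, was measured at 26.9, 26.8 and 27.5 TPM in the plvx neo libraries, 19.1, 20.2 and 21.8 TPM with STBD1 WT and 22.8, 23.2 and 23.2 TPM with STBD1 W203C. The 3 groups formed 3 separate levels, with STBD1 W203C nearer to STBD1 WT than to plvx neo. E2F1 had a log2 fold change of -0.41 ± 0.05 (SE), adjusted p = 1.45e-05, in STBD1 WT vs plvx neo, and its difference between the constructs missed the threshold (log2 fold change of 0.14 ± 0.06 (SE), adjusted p = 0.0659). That difference was called with the length offset (0.188, adjusted p = 0.0122) and with the GC and length offset (0.264, adjusted p = 0.00119). CCNE1, the cyclin that starts S phase with CDK2, had 30.9, 34.4 and 32.98 TPM in the plvx neo libraries, 28.2, 27.2 and 24.1 TPM with STBD1 WT and 30.3, 30.6 and 32.2 TPM with STBD1 W203C. STBD1 WT was lower than all other libraries, at -0.28 ± 0.06 (adjusted p = 0.00162) against plvx neo and 0.22 ± 0.06 (adjusted p = 0.0091) for W203C over WT. CCNE2, the second cyclin E, was low, at 8.85, 10.03 and 7.08 TPM in the plvx neo libraries, 7.27, 6.46 and 5.66 TPM with STBD1 WT and 8.84, 8.45 and 9.86 TPM with STBD1 W203C. Its plvx neo and STBD1 WT values overlapped in TPM although the fit on counts called it (log2 fold change of -0.37 ± 0.11 (SE), adjusted p = 0.0187), and 37.1% of its exon bases overlap INTS8 on the opposite strand. CCNE2 was called between the constructs (log2 fold change of 0.48 ± 0.10 (SE), adjusted p = 0.00128), with separate TPM values.

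CLSPN, SLBP and UHRF1 act at the fork and on chromatin. CLSPN encodes claspin, the adaptor of the replication checkpoint whose promoter is printed above, and had 19.6, 17.8 and 20.1 TPM in the plvx neo libraries, 13.5, 15.1 and 14.1 TPM with STBD1 WT and 18.3, 19.9 and 17.9 TPM with STBD1 W203C. STBD1 WT lay below all other libraries (log2 fold change of -0.46 ± 0.05 (SE), adjusted p = 1.48e-06, against plvx neo, and log2 fold change of 0.39 ± 0.05 (SE), adjusted p = 1.55e-05, for W203C over WT). SLBP, which binds the stem-loop of replication-dependent histone mRNAs, had 119, 119 and 116 TPM in the plvx neo libraries, 103, 104 and 95.7 TPM with STBD1 WT and 123, 116 and 123 TPM with STBD1 W203C. It showed the same order with a smaller step (log2 fold change of -0.23 ± 0.04 (SE), adjusted p = 0.00028, in STBD1 WT vs plvx neo, and log2 fold change of 0.20 ± 0.04 (SE), adjusted p = 0.000798, between the constructs). UHRF1, which directs maintenance DNA methylation, had log2 fold changes of -0.30 and 0.32.

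**Figure D4:**
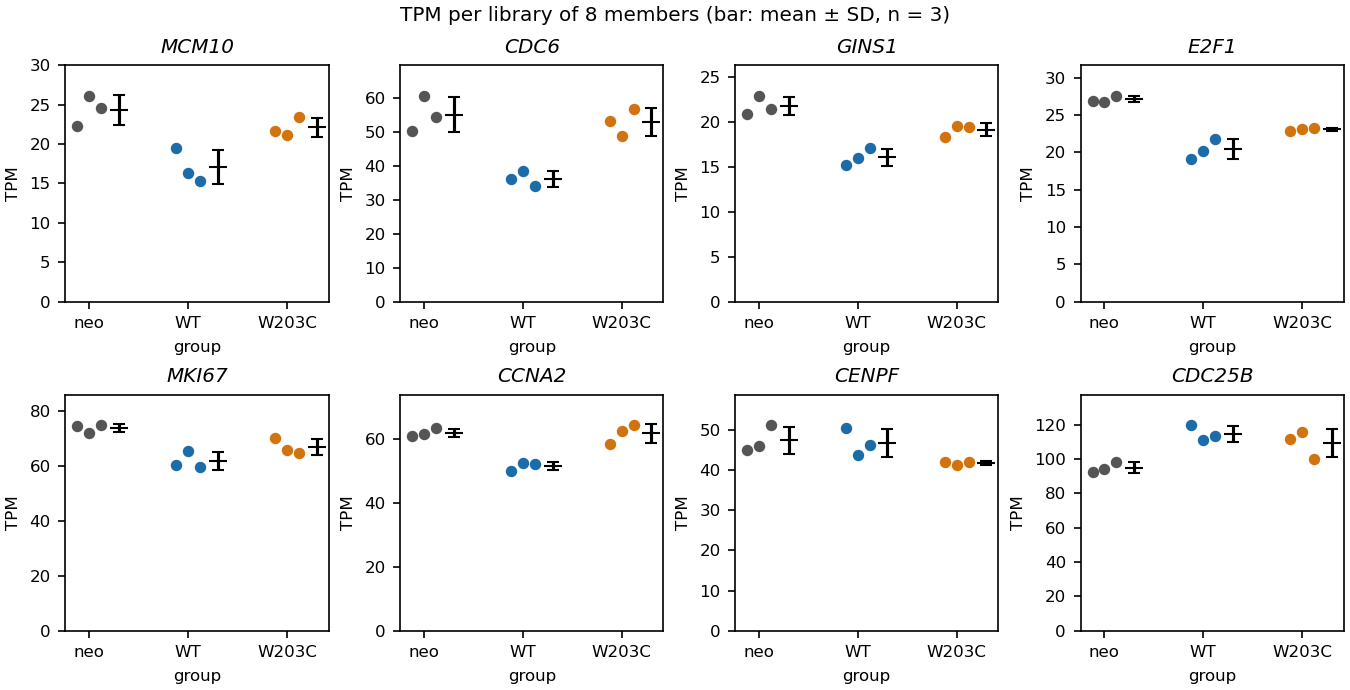
TPM per library (vertical axis, from 0) of 8 members in plvx neo (neo), STBD1 WT (WT) and STBD1 W203C (W203C); points are libraries and the bar beside them is the mean ± SD of 3. MCM10, CDC6 and CCNA2 are lower in STBD1 WT, GINS1 and E2F1 take 3 levels, CENPF overlaps between plvx neo and STBD1 WT, and CDC25B is lowest in plvx neo.

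The G2/M genes had the same main direction with smaller and less uniform changes. Of 31 genes, 20 were lower and CDC25B was higher in STBD1 WT than in plvx neo, and 10 were not called, with a median of -0.16, a change of -10.2%. Over all genes tested 13.9% were called in each direction. The TPM of 18 G2/M genes did not overlap in the lower direction, against 15.7% of all genes. In STBD1 W203C vs STBD1 WT, 14 genes were higher and CDC25B was lower, with a median of 0.10, where 14.5% of all genes were called higher and 13.4% lower, and in 15 genes the TPM values were separate in the higher direction, against 21.3% of all genes. The difference between the blocks was not tested.

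MKI67 and TOP2A, both used to mark dividing cells, were lower in STBD1 WT. MKI67 was at 74.4, 72.05 and 74.7 TPM in the plvx neo libraries, 60.1, 65.4 and 59.6 TPM with STBD1 WT and 70.2, 65.7 and 64.7 TPM with STBD1 W203C. STBD1 WT lay below plvx neo in every library, while STBD1 WT and STBD1 W203C overlapped. MKI67 had a log2 fold change of -0.16 ± 0.04 (SE), adjusted p = 0.00473, in STBD1 WT vs plvx neo. In STBD1 W203C vs STBD1 WT it had 0.11 ± 0.04 (SE), adjusted p = 0.0311. The second call was lost without STBD1 WT library 1, STBD1 W203C library 1 or STBD1 W203C library 2 (adjusted p = 0.0745 to 0.137). It was also lost with limma-trend on TPM (adjusted p = 0.214 with a pseudocount of 1) and with the replicate block (adjusted p = 0.077). TOP2A, the topoisomerase that untangles sister chromatids, had 52.5, 60.1 and 53.5 TPM in the plvx neo libraries, 45.1, 50.4 and 49.4 TPM with STBD1 WT and 47.7, 51.9 and 54.3 TPM with STBD1 W203C. Here too STBD1 W203C overlapped STBD1 WT. Its change against plvx neo in STBD1 WT was -0.16 ± 0.04 (adjusted p = 0.00515), and the constructs differed by 0.03 ± 0.04 (adjusted p = 0.568).

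The cyclin and CDK1 genes were the most mixed. CCNA2, cyclin A, had 60.8, 61.7 and 63.3 TPM in the plvx neo libraries, 50.01, 52.5 and 52.2 TPM with STBD1 WT and 58.5, 62.6 and 64.2 TPM with STBD1 W203C. STBD1 WT was separate and the other groups overlapped (log2 fold change of -0.26 ± 0.04 (SE), adjusted p = 5.34e-05, in STBD1 WT vs plvx neo, and log2 fold change of 0.22 ± 0.04 (SE), adjusted p = 0.00049, between the constructs); 9.24% of its exon bases overlap EXOSC9 on the other strand. CCNB1, the mitotic cyclin B1, had 218, 211 and 211 TPM in the plvx neo libraries, 195, 195 and 192 TPM with STBD1 WT and 235, 233 and 237 TPM with STBD1 W203C. In TPM it took 3 separate levels, with STBD1 W203C the highest. Its difference between STBD1 W203C and plvx neo was not called in the fit reported. TPM values were separate in that direction in 2216 of all 15081 genes tested. CCNB1 was lower in STBD1 WT than in plvx neo by a small step (log2 fold change of -0.13 ± 0.04 (SE), adjusted p = 0.0116; adjusted p = 0.0513 without plvx neo library 1) and higher in STBD1 W203C than in STBD1 WT (log2 fold change of 0.23 ± 0.04 (SE), adjusted p = 5.01e-05). CDK1, the kinase that drives entry into mitosis, had 103, 118 and 115 TPM in the plvx neo libraries, 95.4, 93.1 and 98.7 TPM with STBD1 WT and 104, 102 and 109 TPM with STBD1 W203C. STBD1 WT was the lowest group in TPM (log2 fold change of -0.21 ± 0.04 (SE), adjusted p = 0.000783, against plvx neo), and the difference between the constructs was not called (0.09 ± 0.04, adjusted p = 0.137).

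CDC25B, a phosphatase that activates cyclin-CDK complexes before mitosis, ran against the block. It was at 92.7, 94.1 and 98.4 TPM in the plvx neo libraries, 119.7, 111 and 113 TPM with STBD1 WT and 112, 116 and 100.2 TPM with STBD1 W203C. Both constructs lay above plvx neo in every library and overlapped each other. CDC25B rose in STBD1 WT (log2 fold change of 0.31 ± 0.04 (SE), adjusted p = 1.94e-06) and was lower in STBD1 W203C than in STBD1 WT (log2 fold change of -0.18 ± 0.04 (SE), adjusted p = 0.00132). The second call was lost with the GC and length offset (-0.08, adjusted p = 0.0824) and with limma-trend on TPM (-0.07, adjusted p = 0.487 with a pseudocount of 1). The cyclin CCNB2 and the phosphatase CDC25C were not called, at -0.08 ± 0.05 and -0.01 ± 0.11 in STBD1 WT vs plvx neo.

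FOXM1 and the mitotic kinases were lower in STBD1 WT. FOXM1, the transcription factor of late cell cycle genes, had 53.1, 48.6 and 52.2 TPM in the plvx neo libraries, 48.2, 46.4 and 45.4 TPM with STBD1 WT and 57.1, 58.2 and 52.9 TPM with STBD1 W203C. STBD1 WT was below the other libraries, narrowly for plvx neo (log2 fold change of -0.20 ± 0.04 (SE), adjusted p = 0.00205), and STBD1 W203C was higher (log2 fold change of 0.27 ± 0.04 (SE), adjusted p = 8.20e-05); 15.9% of its exon bases overlap ITFG2. PLK1, the polo-like kinase of mitotic entry, had 108, 105 and 107 TPM in the plvx neo libraries, 94.03, 93.4 and 91.6 TPM with STBD1 WT and 110.04, 115 and 122 TPM with STBD1 W203C. Its 3 groups did not overlap, with STBD1 W203C the highest (log2 fold change of -0.19 ± 0.04 (SE), adjusted p = 0.00131, in STBD1 WT vs plvx neo, and log2 fold change of 0.27 ± 0.04 (SE), adjusted p = 8.10e-05, between the constructs). The difference of PLK1 between STBD1 W203C and plvx neo was not called. Of the other genes of this role, AURKA and AURKB, the Aurora kinases, and BIRC5, survivin of the chromosomal passenger complex, changed by -0.20, -0.14 and -0.23 in STBD1 WT vs plvx neo, and by 0.16, 0.06 and 0.18 in STBD1 W203C vs STBD1 WT, where AURKB was not called. In STBD1 WT vs plvx neo, limma-trend on TPM lost the calls of FOXM1, AURKA, AURKB and BIRC5 (adjusted p = 0.101 to 0.397 with a pseudocount of 1). DESeq2 lost that of AURKB (adjusted p = 0.0504).

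Among the 6 genes of the spindle checkpoint and anaphase, BUB1, BUB1B, TTK and CDC20 were lower in STBD1 WT and UBE2C and PTTG1 were not called (-0.07 ± 0.04 and -0.08 ± 0.04). BUB1B, the checkpoint protein BUBR1, had the largest G2/M fall in the fit on counts (log2 fold change of -0.32 ± 0.05 (SE), adjusted p = 6.16e-05), and 0.20 ± 0.04 between the constructs (adjusted p = 0.00154). In TPM it stood at 47.0, 60.8 and 51.4 TPM in the plvx neo libraries, 39.7, 43.1 and 54.3 TPM with STBD1 WT and 48.1, 50.1 and 50.4 TPM with STBD1 W203C. These values overlapped between all groups, with STBD1 WT library 3 above 2 of the plvx neo libraries, and 5.38% of its exon bases overlap PAK6 on the same strand. On that strand 4.86% of its exon bases also overlap the readthrough gene BUB1B-PAK6. That gene was low, at means of 0.167 TPM in plvx neo, 1.09 with STBD1 WT and 0.48 with STBD1 W203C. It was called higher in STBD1 WT than in plvx neo (adjusted p = 0.00153). BUB1, the checkpoint kinase, had 46.1, 50.8 and 49.9 TPM in the plvx neo libraries, 41.3, 41.7 and 42.2 TPM with STBD1 WT and 48.02, 46.5 and 50.3 TPM with STBD1 W203C, and CDC20, the activator of the anaphase-promoting complex and the most abundant G2/M gene, had 284, 286 and 291 TPM in the plvx neo libraries, 245, 242 and 258 TPM with STBD1 WT and 288, 299 and 314 TPM with STBD1 W203C. Both were separate and lowest in STBD1 WT. Their log2 fold changes were -0.25 ± 0.04 for BUB1 (adjusted p = 7.94e-05) and -0.21 ± 0.04 for CDC20 (adjusted p = 0.000128) in STBD1 WT vs plvx neo, and 0.19 ± 0.04 (adjusted p = 0.00119) and 0.26 ± 0.04 (adjusted p = 5.26e-05) in STBD1 W203C vs STBD1 WT.

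Spindle motors and assembly factors divided. All 4 kinesins were lower in STBD1 WT, with -0.22 for KIF11, the motor that separates the poles, -0.16 for KIF23 and -0.13 for KIF20A, which act in cytokinesis, and -0.15 for the microtubule depolymerase KIF2C; the first 3 were also higher in STBD1 W203C than in STBD1 WT. TPX2, the activator of AURKA on the spindle, had 97.03, 103 and 103 TPM in the plvx neo libraries, 85.5, 83.99 and 85.5 TPM with STBD1 WT and 99.6, 99.8 and 101 TPM with STBD1 W203C. The STBD1 WT values lay below all others (log2 fold change of -0.24 ± 0.03 (SE), adjusted p = 2.32e-05, in STBD1 WT vs plvx neo, and log2 fold change of 0.20 ± 0.03 (SE), adjusted p = 0.000221, between the constructs). NUSAP1 was lower in STBD1 WT (-0.16 ± 0.04), whereas HMMR (-0.11 ± 0.05) and DLGAP5 (-0.07 ± 0.05) were not called. The centromere and kinetochore genes CENPA, CENPE and CENPF were called in no comparison, at -0.10 ± 0.07, 0.01 ± 0.05 and -0.01 ± 0.05 in STBD1 WT vs plvx neo, nor was ANLN, the contractile ring scaffold (-0.09 ± 0.05). In the fit reported, 10 G2/M genes were called in no comparison: CCNB2, CDC25C, UBE2C, PTTG1, CENPA, CENPE, CENPF, HMMR, DLGAP5 and ANLN. With the length offset CCNB2, UBE2C, PTTG1, HMMR, DLGAP5 and ANLN were called lower in STBD1 WT vs plvx neo (adjusted p = 0.00802 to 0.0485). That setting called 26 G2/M genes lower and 1 higher there, beside 3328 and 1740 of all 15289 genes tested. It also called UBE2C higher in STBD1 W203C vs STBD1 WT (adjusted p = 0.0166).

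**Figure D5:**
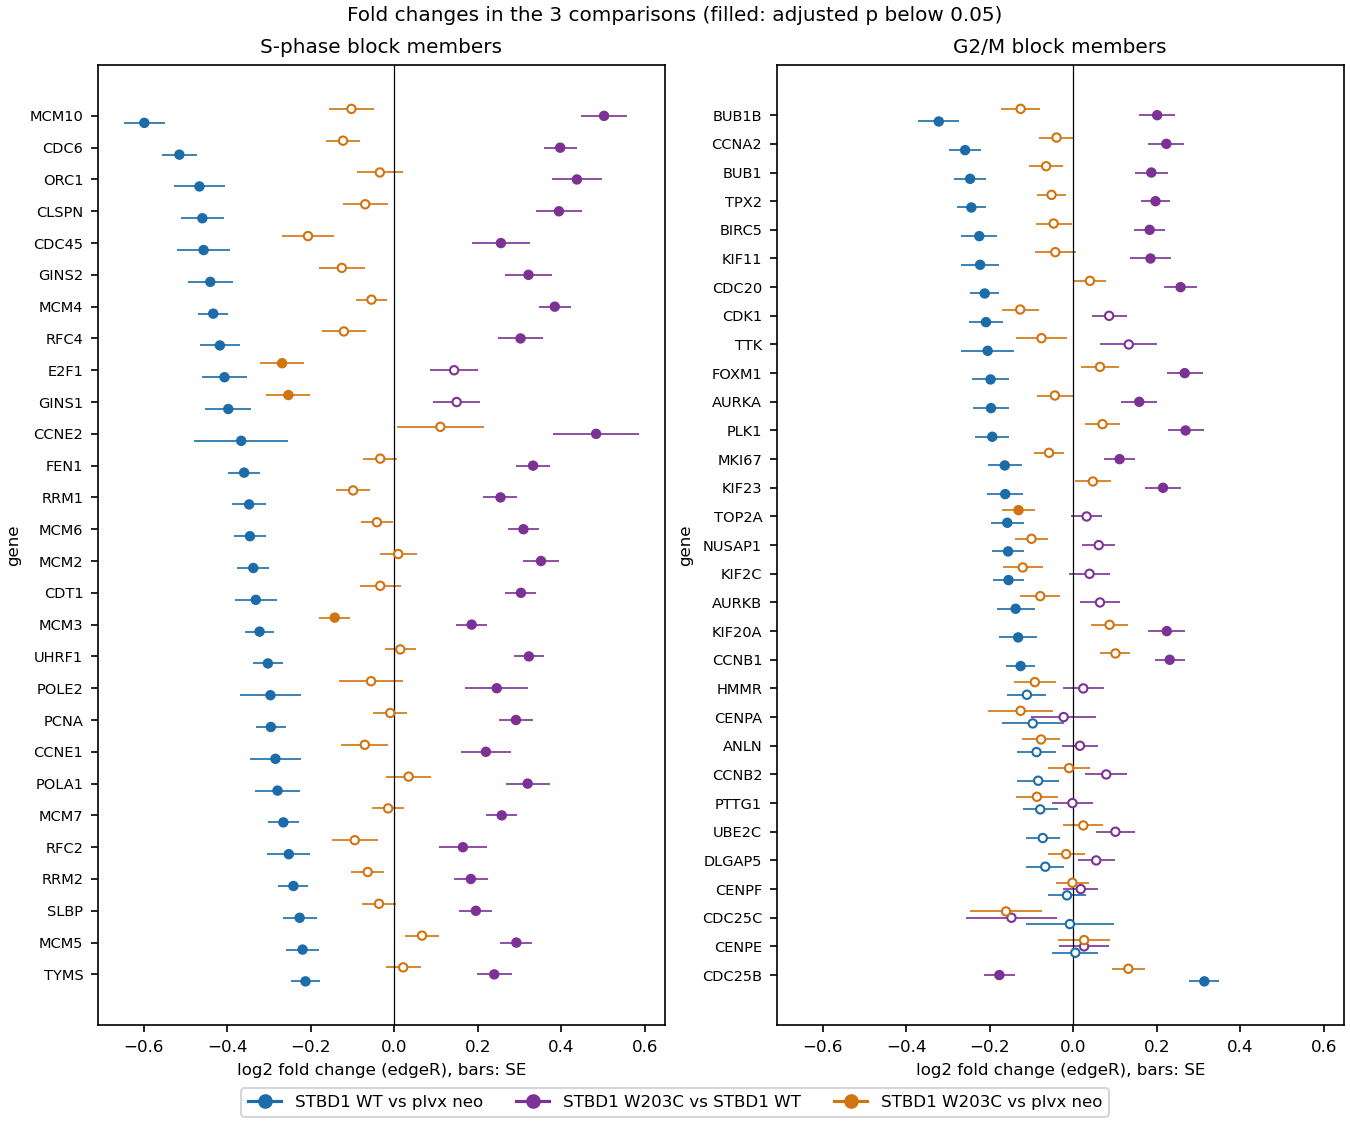
Log2 fold change with its standard error (horizontal axis) of each member in the 3 comparisons; filled points have an adjusted p below 0.05 and open points do not. The S-phase points lie at -0.60 to -0.21 for STBD1 WT vs plvx neo and 0.14 to 0.50 for STBD1 W203C vs STBD1 WT, and the STBD1 W203C vs plvx neo points gather near 0 with 3 S-phase genes and TOP2A filled.

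Against plvx neo, STBD1 W203C differed in few members. In the S-phase block 3 of 28 genes were lower, and the block's log2 fold changes ran from -0.27 to 0.11 with a median of -0.06; in the G2/M block TOP2A was lower, with a range of -0.16 to 0.13 and a median of -0.05. Over all 15081 genes tested, 2.67% were called lower and 3.03% higher, with a median of -0.003. The S-phase genes called were E2F1 (log2 fold change of -0.27 ± 0.05 (SE), adjusted p = 0.00211), GINS1 (log2 fold change of -0.25 ± 0.05 (SE), adjusted p = 0.00355) and MCM3 (log2 fold change of -0.14 ± 0.04 (SE), adjusted p = 0.0221), all with TPM values separate from plvx neo. Of all 15081 genes tested, 827 had TPM values separate in the lower direction and 2216 in the higher. TOP2A was at the edge of the threshold (log2 fold change of -0.13 ± 0.04 (SE), adjusted p = 0.0457), and its TPM values overlapped. No member of either block was called higher in the fit reported. CDC25B, at 0.13 ± 0.04 (adjusted p = 0.0517), was close to the threshold and was called higher with DESeq2, RLE scaling, no count filter, the replicate block, all 9 libraries and both offsets for gene length (adjusted p = 0.0342 to 0.0488), and CCNB1 was called higher with the GC and length offset (adjusted p = 0.0403). At an unadjusted p below 0.05 there were 8 S-phase and 7 G2/M genes in either direction, against 2906 of all 15081 genes tested. DESeq2 called 3 and 2, beside 710 of all genes. CCNB1 and PLK1, highest in STBD1 W203C by TPM, gave 0.10 ± 0.04 (adjusted p = 0.109) and 0.07 ± 0.04 (adjusted p = 0.396). The median SE of a member was 0.05 in the S-phase block and 0.04 in the G2/M block. Differences of 0.10 for CCNB1 and 0.13 for CDC25B, well above these SEs, were not called. Differences of that size could therefore be missed. The calls of MCM3 and TOP2A were lost when single libraries were left out, with an adjusted p of 0.0714 to 0.141 for MCM3 (without plvx neo library 1 or 3, or STBD1 W203C library 1 or 2) and of 0.0508 to 0.205 for TOP2A (without any plvx neo library, or STBD1 W203C library 1 or 2).

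Within the S-phase block, the genes with and without the E2F site searched are given side by side, with no test. The median log2 fold change in STBD1 WT vs plvx neo was -0.33 for the 15 genes with the site and -0.35 for the 10 without it, and all 25 were called. In STBD1 W203C vs STBD1 WT the medians were 0.30 and 0.25, with 13 of 15 and 10 of 10 called, and in STBD1 W203C vs plvx neo -0.04 and -0.08, with 3 of 15 and 0 of 10 called. MCM10 and ORC1, with large falls, had no match in their windows, and CDC6 and CLSPN had 1 each. In the G2/M block the medians in STBD1 WT vs plvx neo were -0.16 for the 16 genes with a CHR and -0.13 for the 9 without, with 10 of 16 and 6 of 9 called. CCNB2, CENPA, CENPF, HMMR, DLGAP5 and ANLN hold a CHR and were not called in the fit reported. These medians are given without a test.

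The wider replication machinery, 56 further genes, had the direction of the S-phase block. In STBD1 WT vs plvx neo 44 were lower and POLD4 was higher, in STBD1 W203C vs STBD1 WT 38 were higher and POLD4 was lower, and in STBD1 W203C vs plvx neo POLD4 alone was called. The medians were -0.25, 0.20 and -0.05. Of all genes tested, 13.9% were called in each direction in the first comparison. In the second 14.5% were called higher and 13.4% lower, and in the last 3.03% and 2.67%. CDC25A, the phosphatase that activates CDK2 at the start of S phase, had 24.6, 26.2 and 22.6 TPM in the plvx neo libraries, 19.8, 17.8 and 19.4 TPM with STBD1 WT and 23.5, 26.2 and 27.02 TPM with STBD1 W203C. It had the largest fall of the list in STBD1 WT and the largest rise in STBD1 W203C vs STBD1 WT (log2 fold change of -0.55 ± 0.06 (SE), adjusted p = 3.19e-07, in STBD1 WT vs plvx neo, and log2 fold change of 0.48 ± 0.06 (SE), adjusted p = 2.66e-06, between the constructs). POLD4, the smallest subunit of DNA polymerase delta, ran the other way at 27.9, 25.3 and 28.1 TPM in the plvx neo libraries, 42.3, 36.8 and 37.4 TPM with STBD1 WT and 19.4, 23.6 and 21.1 TPM with STBD1 W203C, with all 3 groups separate. Its span overlaps RAD9A on the opposite strand, with no shared exon base, and 21.3% of its exon bases overlap an unnamed gene on its own strand at a mean of 0.506 TPM. Its log2 fold changes were 0.46 ± 0.08 (adjusted p = 0.000204), -0.80 ± 0.09 (adjusted p = 7.73e-07) and, against plvx neo in STBD1 W203C, -0.34 ± 0.09 (adjusted p = 0.0271). POLD3, another subunit of that polymerase, had -0.48 and 0.31, and POLE3, of polymerase epsilon, -0.32 and 0.38, all called.

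Of 65 further mitosis genes, 43 were lower in STBD1 WT than in plvx neo, 30 were higher in STBD1 W203C than in STBD1 WT, and 5 were lower in STBD1 W203C than in plvx neo, with no call in the opposite directions. Their medians were -0.19, 0.14 and -0.06. The shares of all genes called lower, higher and lower in these comparisons were 13.9%, 14.5% and 2.67%. The kinetochore genes that the G2/M block left uncalled had counterparts here that were called. CENPN and CENPK, inner kinetochore subunits, changed by -0.38 ± 0.05 and -0.50 ± 0.10 in STBD1 WT vs plvx neo. CENPN shares 4.23% of its exon bases with CMC2, the more abundant gene, on the opposite strand and 12.6% with an unnamed gene on its own strand, so its count is uncertain. In the same list ZWINT, at the outer kinetochore, was higher by 0.35 ± 0.05 in STBD1 W203C vs STBD1 WT (adjusted p = 8.91e-06). CENPK and CDCA8, the passenger complex subunit borealin, were also lower in STBD1 W203C than in plvx neo (-0.38 ± 0.11 and -0.18 ± 0.05).

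Inhibitors and G1 regulators moved in both directions. Of 32 tested, 8 were higher and 7 lower in STBD1 WT than in plvx neo, 7 higher and 10 lower in STBD1 W203C than in STBD1 WT, and 5 higher and 1 lower in STBD1 W203C than in plvx neo, with medians of 0.04, 0.03 and -0.01. The shares of all genes called higher and lower were 13.9% and 13.9%, then 14.5% and 13.4%, then 3.03% and 2.67%. CDKN1A, which encodes the CDK inhibitor p21, stood at 154, 157 and 166 TPM in the plvx neo libraries, 283, 266 and 284 TPM with STBD1 WT and 211, 212 and 222 TPM with STBD1 W203C. The 3 groups did not overlap, with STBD1 W203C between the others. CDKN1A gave a log2 fold change of 0.81 ± 0.04 (SE), adjusted p = 2.01e-12, in STBD1 WT vs plvx neo, a log2 fold change of -0.41 ± 0.04 (SE), adjusted p = 4.40e-08, in STBD1 W203C vs STBD1 WT, and a log2 fold change of 0.39 ± 0.04 (SE), adjusted p = 8.22e-08, in STBD1 W203C vs plvx neo. GADD45A, a stress-response gene linked to growth arrest, had 71.5, 69.4 and 75.6 TPM in the plvx neo libraries, 121, 113 and 113 TPM with STBD1 WT and 94.9, 108 and 97.3 TPM with STBD1 W203C, and BTG2, an antiproliferative gene, had 15.6, 19.4 and 18.5 TPM in the plvx neo libraries, 28.1, 23.9 and 29.7 TPM with STBD1 WT and 25.2, 23.8 and 24.7 TPM with STBD1 W203C. Both constructs were above plvx neo for both genes. Their log2 fold changes were 0.62 and 0.64 in STBD1 WT vs plvx neo and 0.41 and 0.41 in STBD1 W203C vs plvx neo, all called.

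Other inhibitors had other patterns. CDKN2B, the CDK4 and CDK6 inhibitor p15, was higher in STBD1 WT than in plvx neo (log2 fold change of 0.72 ± 0.10 (SE), adjusted p = 2.87e-05) from a low level of 3.45, 5.03 and 3.93 TPM in plvx neo to 8.89, 7.34 and 5.06 TPM. CDKN1C, the inhibitor p57, was lowest in STBD1 W203C, at 11.2, 11.3 and 9.97 TPM in the plvx neo libraries, 13.5, 12.1 and 13.7 TPM with STBD1 WT and 8.13, 7.30 and 5.47 TPM with STBD1 W203C. Its changes were -0.90 ± 0.11 in STBD1 W203C vs STBD1 WT (adjusted p = 3.11e-06) and -0.65 ± 0.12 in STBD1 W203C vs plvx neo (adjusted p = 0.000978). CCNG2, a cyclin of arrested cells, was 0.46 ± 0.08 in STBD1 WT vs plvx neo and -0.56 ± 0.08 in STBD1 W203C vs STBD1 WT. SKP2, the ubiquitin ligase subunit that removes CDK inhibitors, went with the S-phase block, at -0.41 ± 0.06 and 0.35 ± 0.06, as did LIN9, a scaffold of the DREAM complex, at -0.31 ± 0.08 and 0.32 ± 0.08, all called.

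Histone genes did not move as one group. Of 12 tested, 4 were higher and 3 lower in STBD1 WT than in plvx neo, 3 higher and 2 lower in STBD1 W203C than in STBD1 WT, and 1 lower in STBD1 W203C than in plvx neo. Over all genes the shares were 13.9% in each direction, then 14.5% higher and 13.4% lower, then 3.03% higher and 2.67% lower. H2AZ1, a replacement histone gene expressed with the cell cycle, was at 1034, 1029.5 and 1049 TPM in the plvx neo libraries, 811, 826 and 770.1 TPM with STBD1 WT and 981, 963 and 1023 TPM with STBD1 W203C. It was lowest in STBD1 WT (log2 fold change of -0.38 ± 0.04 (SE), adjusted p = 3.93e-07, in STBD1 WT vs plvx neo, and log2 fold change of 0.27 ± 0.04 (SE), adjusted p = 3.64e-05, between the constructs). H2BC5 and H2BC21, canonical H2B genes, were higher in STBD1 WT than in plvx neo by 0.78 and 0.76 on the log2 scale, and their log2 fold changes in STBD1 W203C vs STBD1 WT were -0.50 and -0.73, both called. H1-4, a linker histone gene, was the one called in STBD1 W203C vs plvx neo (log2 fold change of -1.13 ± 0.33 (SE), adjusted p = 0.0457), at no more than 3.26 TPM in any library. H2AX, whose product is the variant phosphorylated at DNA breaks, was -0.13 ± 0.04 in STBD1 WT vs plvx neo and 0.25 ± 0.05 in STBD1 W203C vs STBD1 WT. The counts of near-identical histone genes are uncertain.

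The estimated fragment length, read as the transcript length minus the effective length, was 239.5 to 247 bases in plvx neo, 250.1 to 263.1 with STBD1 WT and 244.9 to 256.7 with STBD1 W203C. All STBD1 WT values lay above all plvx neo values, and those of the constructs overlapped. With an offset for GC content and gene length, all 28 S-phase and 21 G2/M genes were still called in STBD1 WT vs plvx neo, with medians of -0.38 and -0.16. In STBD1 W203C vs STBD1 WT that offset gave 27 S-phase and 16 G2/M calls, with medians of 0.32 and 0.13, adding E2F1, AURKB and UBE2C and losing CDC25B.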

How the data were processed

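RNA-seq libraries, 3 per group, were compared in 3 pairwise comparisons. According to the methods and labels, the authors prepared libraries with a NEBNext Ultra kit, aligned reads with STAR 2.7.1a to hg38 (Ensembl release 93) and ran RSEM 1.3.1. Whether counting used strand is not given in the sources used here. The deposited tables hold the RSEM expected count per gene, the authors' TPM and, per the file headers, transcript and effective lengths. FPKM was not used. No source says whether libraries came from separate cultures, so p-values measure the spread between these libraries.

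Expected counts were rounded. Genes kept by filterByExpr were scaled by TMM, the trimmed mean of M values, then tested two-sided with the quasi-likelihood test of edgeR 4.0.16 (R 4.3.3) on the 6 libraries of each comparison. Calls were made at a p below 0.05 after Benjamini-Hochberg adjustment over all genes tested, and every adjusted p given is from this test unless another setting is named. SE is the absolute log2 fold change over the square root of F. Totals of 16.9 to 23.3 M counts gave 158 to 15271 counts per member and library, and the common biological coefficient of variation was 4.05% to 4.21%. Chi-square per gene between replicates was 2.12 to 3.87, above sampling noise. The tests were checked on simulated data with a common dispersion, in which 200 genes were changed. The check required calls to be recovered only for changes larger than those of any member. Gene lists were written by hand, and the members and lists were chosen with earlier results of these data known. Named genes were the 4 largest calls per direction, block and comparison, 12 fixed members, and the 2 largest per direction in each other list. DESeq2 1.42.0, limma 3.58.1 on log2(TPM + pseudocount), other scalings, offsets, a replicate block and single left-out libraries were the alternatives. Promoters came from RefSeq and positions from GENCODE; exon overlaps used GENCODE release 44.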

Additional observations from a re-analysis of the deposited data

How the results depend on the processing

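Across the alternatives no value named above changed sign where it had been called. Limma-trend on TPM made fewer calls over all genes and in both blocks, and in the other lists except for the histone genes in STBD1 W203C vs plvx neo, with 1 call as in edgeR at a pseudocount of 1; the cause was not tested. With pseudocounts of 1 and 0.1 it called 1751 and 1749 genes in STBD1 WT vs plvx neo (4254 with edgeR), 1828 and 1807 in STBD1 W203C vs STBD1 WT (4202) and 131 and 115 in STBD1 W203C vs plvx neo (859). Higher calls made up 68.8% in STBD1 W203C vs STBD1 WT (51.8% with edgeR) and 74.0% and 73.9% in STBD1 W203C vs plvx neo (53.2%). It called 23, 21 and 0 S-phase genes and 10, 9 and 0 G2/M genes in the 3 comparisons, and moved the STBD1 W203C vs plvx neo medians to 0.014 and -0.015. In STBD1 WT vs plvx neo limma-trend lost the S-phase calls of CDT1, POLA1, POLE2, RRM2 and CCNE2. In the G2/M block it lost AURKA, AURKB, BIRC5, BUB1B, FOXM1, KIF11, KIF20A, KIF23, KIF2C, TOP2A and TTK. In STBD1 W203C vs STBD1 WT it lost the S-phase calls of CCNE1, CDC45, POLE2, RRM1 and RRM2. The G2/M calls that it lost there were AURKA, BUB1B, CDC25B, KIF11, KIF23 and MKI67. With either pseudocount it called 18 other replication genes in STBD1 WT vs plvx neo, 19 in STBD1 W203C vs STBD1 WT and 0 in STBD1 W203C vs plvx neo; it called 21 and 22 other mitosis genes in the first and 0 in the last; it called 5 brakes and G1 cyclins in the first, 11 and 10 in the second and 2 in the last, and with pseudocount 0.1 0 histone genes in the last.

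The length offset gave S-phase medians of -0.389 in STBD1 WT vs plvx neo and 0.343 in STBD1 W203C vs STBD1 WT and G2/M medians of -0.204 and 0.146; the GC and length offset gave -0.375 for the S-phase block, with or without the replicate block, and split all calls in the first comparison into 1635 higher and 3330 lower and in the second into 3272 and 1449. In STBD1 W203C vs plvx neo the small counts moved: G2/M calls were 2 with DESeq2, with RLE scaling, with no count filter, with the replicate block and with all 9 libraries, 3 with the GC and length offset and 0 with that offset and the block, the added calls being CDC25B and, with the GC and length offset, CCNB1, both higher; with the length offset CDC25B took the place of TOP2A; other replication calls were 0 with DESeq2, 2 with no filter, the block, the length offset or the offset with block, and 3 with the GC and length offset; histone calls were 2 with no filter or either offset and 0 with the offset and block.

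Same-numbered libraries did not deviate together (mean correlation 0.0139, from -0.0125 to 0.0677, against -0.00695 for different numbers). These correlations cannot show whether such libraries were prepared together. The replicate block called 28, 25 and 4 S-phase genes and 21, 14 and 2 G2/M genes, losing RFC2 and MKI67 in STBD1 W203C vs STBD1 WT and adding CDC45 and CDC25B in STBD1 W203C vs plvx neo.

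Leaving out 1 library gave 3317 to 3794, 3307 to 3618 and 459 to 818 calls over all genes in the 3 comparisons, 27 to 28, 24 to 26 and 2 to 3 in the S-phase block and 19 to 20, 14 to 16 and 0 to 4 in the G2/M block. Other replication calls were 42 to 44, 33 to 40 and 0 to 2, other mitosis calls 36 to 43, 22 to 32 and 0 to 7, brakes and G1 cyclins 12 to 16, 12 to 17 and 4 to 6, and histones 5 to 7, 4 to 5 and 0 to 1. The S-phase medians were -0.363 to -0.319, 0.257 to 0.318 and -0.069 to -0.043 and the G2/M medians -0.174 to -0.140, 0.059 to 0.124 and -0.068 to -0.036. In STBD1 WT vs plvx neo the call of CCNE2 was lost in 4 of 6 such fits (adjusted p = 0.0634 to 0.0877; without plvx neo 1 or 2 or STBD1 WT 2 or 3), AURKB in 4 (0.0618 to 0.112; without plvx neo 1 or 3 or STBD1 WT 2 or 3), TTK in 3 (0.0768 to 0.131; without plvx neo 2 or STBD1 WT 1 or 2) and KIF20A in 3 (0.0515 to 0.167; without plvx neo 3 or STBD1 WT 1 or 3). Between the constructs, RFC2 lost its call in 5 (0.0517 to 0.13; all but without STBD1 W203C 2), POLE2 in 2 (0.0543 and 0.0707; without STBD1 WT 2 or STBD1 W203C 2), CCNE1 without STBD1 WT 3 (0.0505), AURKA without STBD1 WT 2 (0.0762) and KIF11 without STBD1 W203C 3 (0.0501).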
